A study of Mus musculus with 24 samples.

Results

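The transcripts described here belong to the tumour necrosis factor (TNF) and interleukin-1 (IL-1) inflammatory circuit: the cytokines Tnf, Il1a and Il1b, the IL-1 receptor antagonist Il1rn, the IL-1 receptor Il1r1, and the NF-kB subunits and inhibitors Nfkb1, Relb, Nfkbia and Tnfaip3. They were taken by name, as the probe sets of a mouse whole-transcript array annotated with one of these 9 symbols. The annotation named a probe set for 8 of the 9, out of 23279 named genes in the series, and Nfkb1 was not analysed here. Of these 8, 7 passed the filter on low values, and Il1a, which lay above the array median on only 2 of 24 arrays, did not. None of the 7 passed through a single group, since Il1b lay above the median on 18 arrays, Tnf on 23 and the other 5 on all 24.

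The arrays came from mouse tibialis anterior muscle injured with cardiotoxin, a snake venom toxin that destroys muscle fibres while sparing most stem cells. Satellite cells, the resident stem cells of muscle, and endothelial cells, which line its vessels, were purified by flow cytometry from uninjured muscle (day 0) and on days 2, 4 and 8 after injury, which gave 8 groups of 3 arrays. The satellite cell gate took cells without CD45, Sca1 or CD31 that carried alpha7 integrin and had positive or low CD34, and the endothelial gate took cells without CD45 that carried Sca1, CD34 and CD31. All groups shared this CD45-negative selection, and strain, sex, age and the number of animals behind a replicate are not given in the sources used here. The titles call the 3 arrays of a group biological replicates without saying whether they came from separate animals, so the tests measure the spread between these samples, which may be partly technical.

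TNF and IL-1 are cytokines released early after tissue damage, mostly by immune cells, and both signal to the transcription factor NF-kB. In resting cells the inhibitor IkB-alpha, the product of Nfkbia, holds NF-kB in the cytoplasm. Receptor signalling has IkB-alpha destroyed, and NF-kB then switches on genes that include its own brakes, among them Nfkbia and Tnfaip3. In injured muscle, neutrophils and macrophages are known sources of these cytokines, and satellite and endothelial cells are known to respond to them.

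The stretches of 250 bases just before the transcription start (RefSeq, GRCm38.p6) are shown for both feedback inhibitors and for Tnf, because kappaB motifs stood close to the start of the first 2 and not in the third. Capitals mark matches to the kappaB consensus or to the palindrome GGAANTTCC, searched on both strands, and where both motifs matched the same bases the capitals cover both. The windows are chr12:55492648-55492897 (minus strand) for Nfkbia, chr10:19015411-19015660 (minus strand) for Tnfaip3 and chr17:35202008-35202257 (minus strand) for Tnf, each written 5′ to 3′ along the gene.
Nfkbia: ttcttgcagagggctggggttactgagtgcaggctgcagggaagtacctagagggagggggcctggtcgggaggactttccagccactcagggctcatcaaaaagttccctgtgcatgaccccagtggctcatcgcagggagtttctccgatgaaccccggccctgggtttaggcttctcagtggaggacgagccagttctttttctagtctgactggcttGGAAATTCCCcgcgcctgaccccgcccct
Tnfaip3: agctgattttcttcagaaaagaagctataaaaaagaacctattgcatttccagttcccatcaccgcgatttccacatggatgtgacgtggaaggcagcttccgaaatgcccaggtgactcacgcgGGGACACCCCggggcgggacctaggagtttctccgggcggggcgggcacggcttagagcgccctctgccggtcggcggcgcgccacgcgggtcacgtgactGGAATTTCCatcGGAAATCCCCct
Tnf: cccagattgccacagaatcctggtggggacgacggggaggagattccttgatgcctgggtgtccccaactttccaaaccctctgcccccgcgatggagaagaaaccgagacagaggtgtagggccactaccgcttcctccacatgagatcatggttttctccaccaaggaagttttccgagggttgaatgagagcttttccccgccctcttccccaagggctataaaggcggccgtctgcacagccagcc

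In Nfkbia both motifs matched at the same place, with GGAAATTCCC beginning 29 bases before the start. Tnfaip3 held GGAATTTCC beginning 24 bases before the start, GGAAATCCCC 12 bases before it and GGGACACCCC 125 bases before it. Over 32851 mouse windows of the same length, 7.25% held the kappaB consensus and 0.813% held GGAANTTCC. RefSeq windows were at hand for 7 of the 9 genes, 11 windows in all. Only 1 other window, an alternative start of Il1r1 with GGAATGCCCC 232 bases upstream, held a match. A match is a run of letters and says nothing of binding in these cells.

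The values are log2 intensities, and array medians lay between 4.11 and 4.40, so a gene near 4 was at the middle of its array and one below 4 was among the dimmer probe sets. A difference is one group mean less another on this log2 scale, and its standard error (SE) comes from a limma fit over all 24 arrays. A gene was called when its Benjamini-Hochberg adjusted p was under 0.05 and its absolute difference at least 1. A fold is printed only for a pair of groups whose dimmer member lay at least 1 above the array medians.

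The sorted populations were checked against their markers, because these bear on every inflammatory transcript. Pecam1, which encodes the gate antigen CD31, was at 11.39 to 11.56 in the 4 endothelial groups and at 7.71 to 9.55 in the 4 satellite cell groups. Pax7, the defining transcription factor of satellite cells, was at 9.28 ± 0.52 (mean ± SD, n = 3) in satellite cells on day 0, at 5.17 ± 0.51 on day 2, at 8.46 ± 0.49 on day 4 and at 8.13 ± 0.73 on day 8. The day 2 values of Pax7 in arrays titled satellite cells, 4.67 to 5.70, overlapped those of endothelial cells on the same day, 4.22 to 5.10, and 9 of 10 satellite cell markers were called lower than on day 0. Ptprc, which encodes the CD45 that was gated against, was at 2.97 ± 0.16 in satellite cells on day 0 and at 9.17 on day 2 (range 8.01 to 9.82). In endothelial cells it was at 2.84 ± 0.06 and 4.90 ± 1.64. The mean of 12 leukocyte markers was 3.96 ± 0.21, 10.16 ± 0.98, 7.74 ± 0.65 and 6.19 ± 0.87 on days 0, 2, 4 and 8 in satellite cells, and 4.06 ± 0.15, 7.04 ± 1.23, 7.23 ± 1.08 and 5.48 ± 0.65 in endothelial cells. All 12 lay above the array median on each satellite cell array of day 2. Satellite cell replicate 2 of day 2 stood apart from the other two, with a leukocyte mean of 9.03 against 10.73 and 10.72 and an endothelial marker mean of 8.95. Replicate 1 of day 8 stood apart in Il1r1, and results that rest on either array are given without it. In bulk RNA such as this, fewer cells of a type and less RNA per cell cannot be told apart. Throughout, satellite cells and endothelial cells name the sorted samples by their titles. Which cells within a sorted sample carried a transcript was not tested.

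The cytokine transcripts were scarce or moderate in the cells sorted from uninjured muscle and were highest on day 2, with the highest levels in the satellite cell arrays. Il1b, which encodes the secreted pro-inflammatory form of IL-1, was at 3.60, 3.16 and 3.19 on the 3 satellite cell arrays of day 0, at 11.44, 10.57 and 10.55 on day 2, at 6.81, 7.22 and 6.23 on day 4 and at 7.05, 4.65 and 6.01 on day 8. All satellite cell arrays of the injured days lay above all of day 0, and day 2 lay above every other group in the series. In endothelial cells Il1b was at 3.04, 3.26 and 2.78 on day 0, at 8.82, 7.63 and 5.88 on day 2, at 7.46, 5.33 and 5.38 on day 4 and at 4.77, 4.99 and 5.96 on day 8. Here too each injured array exceeded each uninjured one. Il1b rose in satellite cells by 7.54 on day 2 (SE 0.64, adjusted p = 2.9e-08), by 3.43 on day 4 (adjusted p = 0.000685) and by 2.58 on day 8 (adjusted p = 0.0122). In endothelial cells it rose by 4.42 on day 2 (SE 0.64, adjusted p = 0.000166) and by 3.03 on day 4 (adjusted p = 0.005), while the difference of 2.22 on day 8 was not called (adjusted p = 0.079). That day 8 difference was called with array weights (adjusted p = 0.0464) and with only the groups compared (adjusted p = 0.0154). Between days 2 and 4 Il1b fell by 4.10 in satellite cells, which is 17.2-fold, and the endothelial difference of -1.39 was not called (adjusted p = 0.486). The day 0 means stood at -1.03 (satellite cells) and -1.16 (endothelial cells) relative to the array medians, in a dim range where the array compresses differences. The differences from day 0 are therefore those of the deposited values and may understate the change. The interaction given further on subtracts the endothelial difference from the satellite cell difference, so it may be too small or too large. Without satellite cell replicate 1 of day 8 the day 8 difference was 2.01 with an adjusted p of 0.0827.

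Tnf, which encodes the cytokine that gives TNF signalling its name, started from different levels in the cell types. On day 0 it was at 4.39, 4.35 and 4.53 in satellite cells, at the middle of the array, and at 6.92, 7.10 and 6.40 in endothelial cells. The groups did not overlap, and the satellite cell difference from endothelial cells was -2.39 (SE 0.52, adjusted p = 0.00165). On day 2 the satellite cell arrays were at 10.72, 8.12 and 9.85 and the endothelial arrays at 8.52, 6.95 and 7.59. The order of the cell types was thus turned, although the lowest satellite cell array lay below the highest endothelial one. On day 4 the values were 7.21, 6.00 and 5.65 in satellite cells and 6.99, 6.52 and 6.28 in endothelial cells, and on day 8 they were 5.35, 5.05 and 6.32 against 6.22, 6.57 and 5.68. On both of these days the cell types overlapped. In satellite cells Tnf rose by 5.14 on day 2 (SE 0.52, adjusted p = 2.75e-07) and by 1.87 on day 4 (adjusted p = 0.0159), and fell by 3.28 between days 2 and 4, which is 9.68-fold. The satellite cell difference of 1.15 on day 8 was not called (adjusted p = 0.193). Without replicate 1 of day 4 the day 4 difference was 1.41 and was not called (adjusted p = 0.0981). In endothelial cells the day 2 difference from day 0 was 0.88 (SE 0.52) and was not called (adjusted p = 0.355).

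Il1a, which encodes the cell-bound alarm form of IL-1, was dim in nearly every sample. Its satellite cell values on day 2 were 8.23, 4.11 and 5.30, so the group mean of 5.88 rests largely on replicate 1. The other 7 groups had means between 2.87 and 3.35, with no single array above 4.12. Tested without the filter on low values, over 23279 genes, Il1a was higher in satellite cells on day 2 than on day 0 by 2.60 (SE 0.67, adjusted p = 0.0084) and differed by -2.53 between days 4 and 2 (adjusted p = 0.0203). Its day 2 response was not called as different between the cell types (2.27, adjusted p = 0.191).

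**Figure D1:**
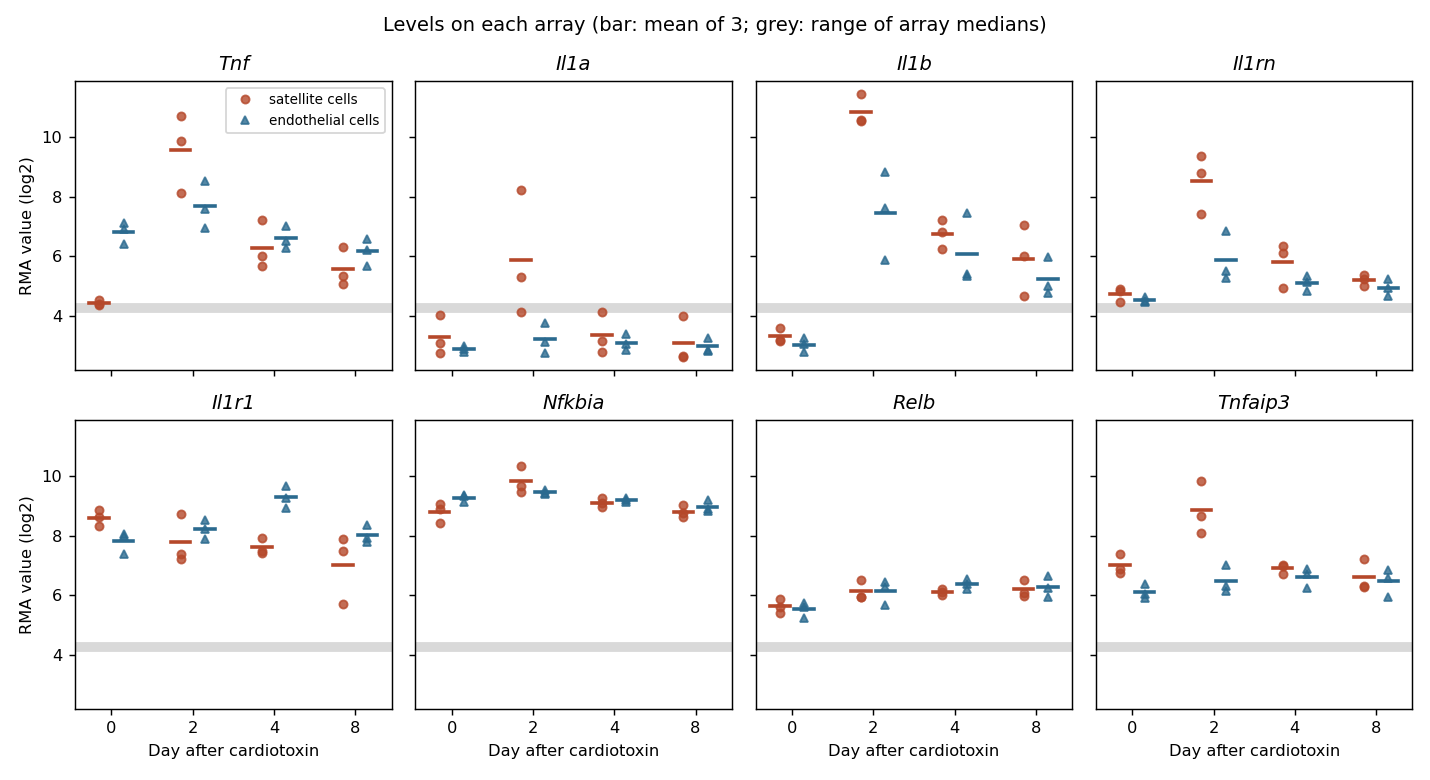
Each panel plots 1 gene, with the day after cardiotoxin on the horizontal axis and the log2 value on the vertical axis; red circles are satellite cell arrays, blue triangles are endothelial arrays, bars are means of 3 arrays, and the grey band spans the array medians (4.11 to 4.40). Il1b on day 2 in satellite cells lies between 10.55 and 11.44, above every other group, and Il1r1 on day 4 in endothelial cells lies between 8.91 and 9.67.

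Il1rn, the natural antagonist that occupies the IL-1 receptor without signalling, followed the cytokines. In satellite cells it was at 4.91, 4.82 and 4.47 on day 0, at 9.35, 7.42 and 8.78 on day 2, at 6.11, 6.35 and 4.93 on day 4 and at 5.22, 4.99 and 5.38 on day 8. The day 2 arrays lay above all other groups. In endothelial cells it was at 4.47, 4.51 and 4.64 on day 0, at 6.84, 5.51 and 5.25 on day 2, at 5.12, 5.32 and 4.81 on day 4 and at 4.94, 4.65 and 5.22 on day 8. All endothelial values of the injured days exceeded those of day 0, yet only replicate 1 of day 2 passed 6. Il1rn rose by 3.79 in satellite cells on day 2 (SE 0.43, adjusted p = 9.73e-07) and fell by 2.72 between days 2 and 4, which is 6.6-fold (adjusted p = 0.000138). Its satellite cell differences from day 0 were 1.06 on day 4 (adjusted p = 0.0954) and 0.46 on day 8 (adjusted p = 0.583), and neither was called. That of day 4 was called with array weights (adjusted p = 0.025) and without satellite cell replicate 3 of day 4 (adjusted p = 0.0256). The endothelial difference of 1.33 on day 2 was also not called (SE 0.43, adjusted p = 0.0555). It was called with a stricter filter (adjusted p = 0.0464), with array weights (adjusted p = 0.0189) and without endothelial replicate 3 of day 2 (adjusted p = 0.036).

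Il1r1, the receptor chain through which IL-1 signals, took another course. It was well expressed at rest, at 8.33, 8.86 and 8.62 in satellite cells and at 7.97, 8.06 and 7.38 in endothelial cells. The satellite cell difference from endothelial cells on day 0 was 0.80 and was not called. In satellite cells it was at 7.38, 8.73 and 7.21 on day 2, at 7.49, 7.41 and 7.90 on day 4 and at 5.71, 7.90 and 7.48 on day 8. On days 4 and 8 all arrays lay below those of day 0, and on day 2 only replicate 2, the array that stood apart, reached the day 0 range. In endothelial cells Il1r1 was at 7.89, 8.23 and 8.51 on day 2, at 8.91, 9.27 and 9.67 on day 4 and at 7.77, 7.93 and 8.36 on day 8. The day 4 arrays were the highest of the series and overlapped no other group. In satellite cells Il1r1 fell by 1.58 on day 8 (SE 0.43, adjusted p = 0.0246), which is 2.98-fold, while the difference of -0.83 on day 2 and that of day 4 (adjusted p = 0.126) were not called. Without replicate 1 of day 8 the day 8 difference was -0.92 and was not called (adjusted p = 0.159), and it also lost its call without replicate 2 of day 0 (adjusted p = 0.0841) or replicate 3 of day 0 (adjusted p = 0.0627) and with only the groups compared (adjusted p = 0.138). Without replicate 2 of day 2 the day 2 difference was -1.31 and was called (adjusted p = 0.027), as it was with array weights (adjusted p = 0.0207). The day 4 difference was called with array weights (adjusted p = 0.0381) and with only the groups compared (adjusted p = 0.0404). In endothelial cells Il1r1 rose by 1.48 on day 4 (SE 0.43, adjusted p = 0.0447), which is 2.78-fold. That call was lost when any single one of the 6 arrays compared was left out, with the difference between 1.26 and 1.66 over all alternatives. The endothelial differences of 0.40 on day 2 and 0.22 on day 8 were not called, and neither were the steps of 1.07 from day 2 to day 4 (adjusted p = 0.38) and -1.26 from day 4 to day 8 (adjusted p = 0.361).

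Nfkbia was among the brighter transcripts in all samples and moved little. Its satellite cell values were 9.05, 8.89 and 8.42 on day 0, 10.34, 9.48 and 9.66 on day 2, 8.95, 9.11 and 9.27 on day 4, and 9.01, 8.61 and 8.76 on day 8. The day 2 arrays lay above all other satellite cell arrays. The 12 endothelial values ran from 8.83 on day 8 to 9.53 on day 2. Nfkbia rose by 1.04 in satellite cells on day 2 (SE 0.22, adjusted p = 0.000893), which is 2.05-fold. The difference fell below 1 without satellite cell replicate 3 of day 0 (0.86) or replicate 1 of day 2 (0.78), and with only the groups compared in the fit the adjusted p was 0.0571, so the call was lost in these 3 settings. Between days 2 and 4 it differed by -0.72, past the p threshold (adjusted p = 0.0293) but under the size required for a call. The other satellite cell difference given here, 0.32 on day 4 (adjusted p = 0.359), and the endothelial difference of 0.19 on day 2 were not called.

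Tnfaip3, which encodes the ubiquitin-editing enzyme A20 that shuts off TNF and IL-1 signalling, was called in 1 group. Its satellite cell values were 7.38, 6.75 and 6.89 on day 0, 9.82, 8.10 and 8.66 on day 2, 6.70, 7.00 and 6.98 on day 4, and 7.22, 6.30 and 6.28 on day 8. In endothelial cells they were 6.39, 6.05 and 5.91 on day 0, 7.02, 6.12 and 6.31 on day 2, 6.87, 6.23 and 6.72 on day 4, and 6.85, 6.58 and 5.94 on day 8. Only the satellite cell arrays of day 2 stood clear of all others. Tnfaip3 rose by 1.86 there (SE 0.37, adjusted p = 0.00056), which is 3.62-fold, and fell by 1.96 between days 2 and 4, which is 3.9-fold (adjusted p = 0.000791). The endothelial difference on day 2 was 0.37 and was not called. On day 0 satellite cells were higher by 0.89, which was not called (adjusted p = 0.0916).

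Relb, the NF-kB subunit that pairs with p52 in the slower non-canonical branch, stayed within a narrow range. In satellite cells it was at 5.38, 5.60 and 5.88 on day 0, and the 9 arrays of the injured days lay between 5.94 and 6.52, above all of these. In endothelial cells it was at 5.62, 5.75 and 5.23 on day 0 and at 5.68 to 6.65 on the injured days, with 1 array of day 2 inside the day 0 range. The differences from day 0 were 0.51, 0.48 and 0.57 on days 2, 4 and 8 in satellite cells and 0.60, 0.85 and 0.75 in endothelial cells. None was called, although the endothelial value on day 4 passed the p threshold (adjusted p = 0.0399).

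Read by comparison, the rise on day 2 in satellite cells took in 5 of the 7 genes tested, namely Il1b, Tnf, Il1rn, Tnfaip3 and Nfkbia, where 10.9% of the 14064 genes tested were called higher. Without replicate 2, 6 of 7 were called, the sixth being the fall of Il1r1. All 12 leukocyte markers, 12 of 12 macrophage markers and all 6 tested neutrophil markers were called higher in the same comparison, and their part in the rise of these 5 genes was not tested. The neutrophil list held 10 genes, of which 6 passed the filter. On each day 0 array 0 of the 10 lay above the median, and on the satellite cell arrays of day 2 it was 6 or 7. The higher day 2 level of the 6 was thus in part built into the filter. Of 10 endothelial markers, 6, 4 and 5 were called higher than on day 0 in the satellite cell arrays of days 2, 4 and 8. Of 10 markers of mural cells, 10, 8 and 3 were called lower in the same comparisons. The mural mean was 10.09, 7.10, 7.18 and 8.95 on days 0, 2, 4 and 8 in satellite cells. The part of either list in the course of Il1r1, which endothelial cells also express, was not tested. On day 4 in satellite cells 2 of 7 were called higher (Il1b and Tnf) against 6.53% of all genes, with 10 of 12 leukocyte markers higher. On day 8, 1 of 7 was higher (Il1b) against 4.38%, and 1 of 7 was lower (Il1r1) against 2% of all genes, with 6 of 12 leukocyte markers higher. Neither call remained without replicate 1 of day 8. From day 2 to day 4, 4 of 7 fell (Il1b, Tnf, Il1rn and Tnfaip3) against 5.76% of all genes. From day 4 to day 8 limma called 0 of 7, where 1.68% of all genes were called in either direction. At an unadjusted p under 0.05 there were 0 of 7, against 13% of all genes.

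In endothelial cells Il1b and Il1r1 were the only genes of the 7 called on any day. On day 2, 1 of 7 was higher than on day 0 (Il1b), against 3.73% of all genes. Of 12 leukocyte markers 8 were higher, as were 4 of the 6 neutrophil markers that passed the filter. On day 4, 2 of 7 were higher (Il1b and Il1r1) against 3.11%, with 9 of 12 leukocyte markers higher. By day 8 limma called 0 of 7, against 2.05% of all genes in either direction. At an unadjusted p under 0.05 there were 2 of 7, against 13.6% of all genes. The step from day 2 to day 4 gave 0 of 7 against 0.37%, with 3 of 7 at an unadjusted p under 0.05 against 9.82% of all genes. The step from day 4 to day 8 gave 0 of 7 against 0.121%, with 1 of 7 at an unadjusted p under 0.05 against 8.11%.

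**Figure D2:**
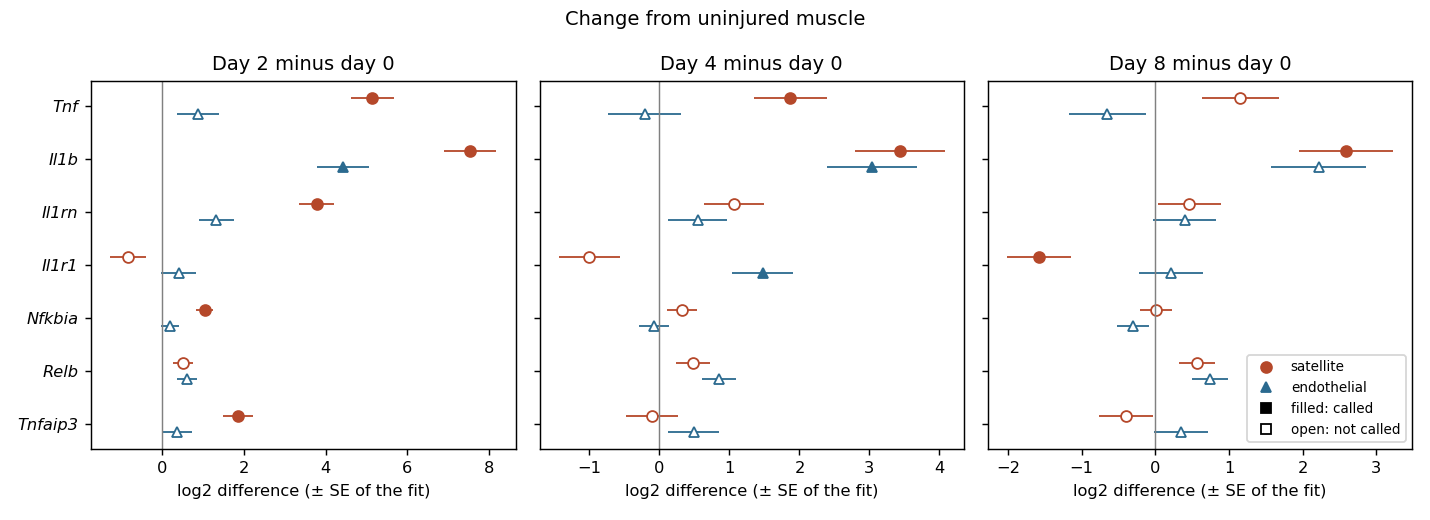
The 3 panels plot the log2 difference from day 0 on days 2, 4 and 8 for the 7 genes tested, with the SE of the fit as bars; red circles are satellite cells, blue triangles are endothelial cells, filled symbols are called and open ones are not, and the horizontal axes differ in range. On day 2, 5 satellite cell symbols are filled against 1 endothelial symbol, and Il1r1 lies on opposite sides of 0 in the cell types on each day.

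The cell types were next set against each other on the same day, and then their responses to injury. On day 0 only Tnf was called, lower in satellite cells as given above, where 9.43% of all genes were lower; Nfkbia differed by -0.49 and was not called. On day 2, 4 of 7 were higher in satellite cells, against 5.82% of all genes: Il1b by 3.41 (10.6-fold, adjusted p = 0.000836), Il1rn by 2.65 (6.29-fold, adjusted p = 2e-04), Tnfaip3 by 2.37 (5.19-fold, adjusted p = 0.000142) and Tnf by 1.88 (3.67-fold, adjusted p = 0.0163). The groups of Il1b, Il1rn and Tnfaip3 did not overlap, while those of Tnf did. The Tnf call was lost without replicate 1 of satellite cells (adjusted p = 0.129) and also without satellite cell replicate 3, endothelial replicate 2 or endothelial replicate 3, and with only the groups compared (adjusted p = 0.145). Nfkbia differed by 0.37 and was not called. On day 4, Il1r1 was lower in satellite cells (a difference of -1.68, or 3.21-fold, adjusted p = 0.0087), 1 of 7 against 7.73% of all genes. On day 8 limma called 0 of 7 against 13.9% of all genes in either direction, with 1 of 7 at an unadjusted p under 0.05 against 29.7%. The Il1r1 difference was -0.99. Without satellite cell replicate 1 of day 8 it was -0.33 (adjusted p = 0.635). Without satellite cell replicate 2 of day 8 it was -1.43 and was called (adjusted p = 0.0333).

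The difference between the responses was itself tested as an interaction. By day 2 the change from day 0 was larger in satellite cells for 3 of 7 genes, against 6.44% of all genes: by 4.26 for Tnf (SE 0.74, adjusted p = 0.000716), by 3.12 for Il1b (SE 0.91, adjusted p = 0.0291) and by 2.46 for Il1rn (SE 0.60, adjusted p = 0.0102). The Il1b interaction lost its call in 6 of the fits that each left out 1 array, with adjusted p up to 0.0836. For Tnfaip3 (1.49, adjusted p = 0.0676), Nfkbia (0.85, adjusted p = 0.0753) and Il1r1 (-1.24, adjusted p = 0.225) the difference in response was not called. Without satellite cell replicate 2 of day 2 these 3 were called too, at 1.87, 1.03 and -1.71. With array weights the same 3 were called, and Tnfaip3 was also called without endothelial replicate 1 of day 2 (adjusted p = 0.0419). By day 4 the response of Il1r1 was lower in satellite cells (-2.48, SE 0.61, adjusted p = 0.0222), 1 of 7 against 2.24% of all genes. Leaving out 1 of 4 arrays in turn, namely satellite cell replicate 2 or endothelial replicate 3 of day 0 and the same replicates of day 4, ended that call, with adjusted p up to 0.0639. The Tnf difference of 2.08 on day 4 was not called (adjusted p = 0.131), although it was with array weights (adjusted p = 0.0441) and with only the groups compared (adjusted p = 0.0374). On day 8 limma called 0 of 7 against 2.2% of all genes in either direction, with 2 of 7 at an unadjusted p under 0.05 against 15%. Tnf was at 1.80 (adjusted p = 0.246) and Il1r1 at -1.79 (adjusted p = 0.15). Without satellite cell replicate 1 of day 8 the Il1r1 value was -1.13 (adjusted p = 0.282). The leukocyte marker mean differed between the cell types in the same direction as the cytokines on day 2, 10.16 against 7.04, and lay close on day 4, 7.74 against 7.23.

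Pooled over the groups, arrays with more leukocyte transcript than their group's mean tended to have more cytokine transcript. This did not hold in every group. In endothelial cells on day 8, for example, Tnf was at 6.22, 6.57 and 5.68 where the leukocyte mean was 5.82, 4.73 and 5.89. With each group's mean removed, the correlation over 24 arrays between a gene and the mean of the 12 leukocyte markers was 0.709 for Tnf, 0.697 for Il1rn and 0.638 for Il1b. It was 0.497 for Tnfaip3, 0.135 for Nfkbia and 0.0509 for Relb, and -0.595 for Il1r1. Among the 8 lists read, Il1r1 had its largest value with the mean of 10 endothelial markers, at 0.771. It had 0.618 with the mural list and -0.64 with 12 immediate early genes, which include stress-induced transcription factors. Tnfaip3 had its largest with the immediate early list, at 0.728, beside -0.688 with the endothelial and 0.606 with the neutrophil list. With group means kept, its immediate early value was 0.378 and its neutrophil value 0.823. In satellite cells the immediate early mean was 10.11 on day 0 and 9.50 on day 2, when Tnfaip3 was higher. These values are a description, since the arrays share their groups and normalization, and the part of leukocyte RNA in the differences above was not tested.

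**Figure D3:**
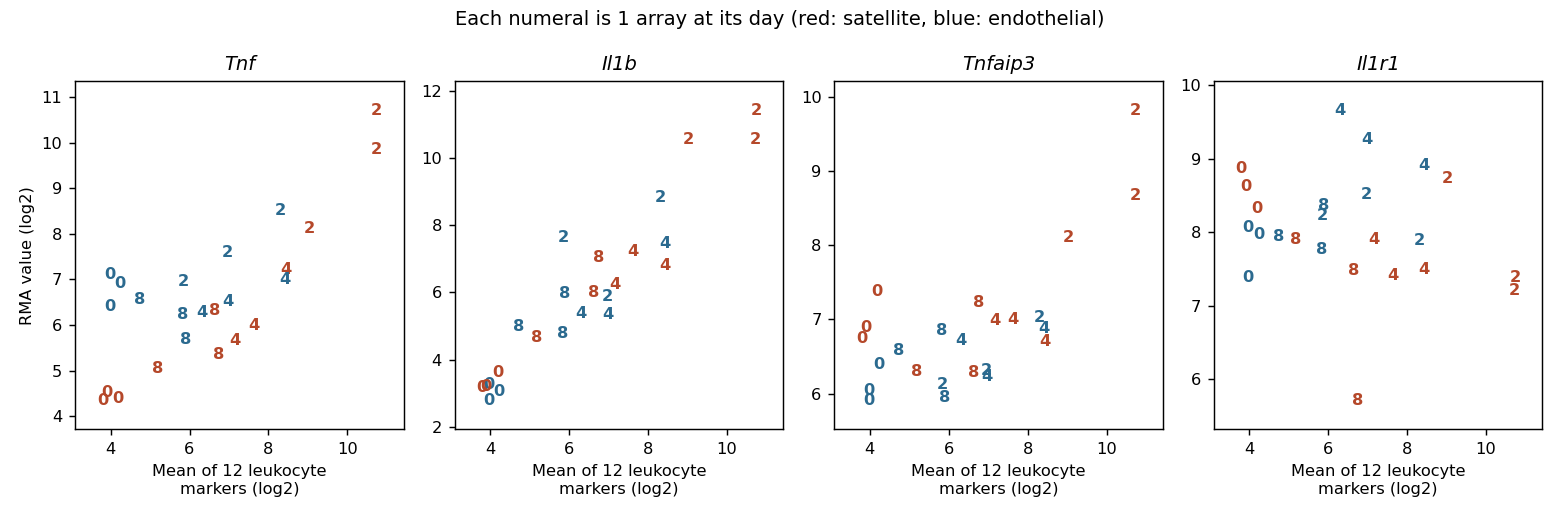
Each panel plots 1 gene against the mean of 12 leukocyte markers, both in log2; each numeral is 1 array, placed at its values and giving its day, in red for satellite cells and blue for endothelial cells. The satellite cell arrays of day 2 lie farthest to the right, at leukocyte means of 9.03 to 10.73, and hold the highest Il1b and Tnfaip3 values, while Il1r1 peaks in the endothelial arrays of day 4.

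The other genes of the pathway were followed with a list of 68, of which 60 passed the filter. Of these, 2 (Il1r2 and Nlrp3) passed only with the satellite cell arrays of day 2 counted, so their higher level there was built into the selection and they are left out of the counts that follow, over 58 genes, a choice made after the values were seen. In satellite cells on day 2, 28 of 58 were called higher and 1 lower, against 10.9% and 9.67% of all genes. The median difference was 0.98 against -0.03 over all genes tested. The count was 31 higher without replicate 2 of day 2 and 24 without its replicate 1. Among targets of NF-kB, 8 of 12 rose, led by the chemokines Cxcl2 (7.38) and Ccl2 (6.54), which draw in neutrophils and monocytes, and by Ptgs2 (6.85), the inducible enzyme of prostaglandin synthesis. The 1 gene that fell was also a target, Vcam1, an adhesion molecule that satellite cells carry at rest, by 2.35. In the IL-1 group 2 of 4 rose, the inflammasome parts Casp1 (3.29) and Pycard (1.77), which help to process the IL-1 precursor. As a description only, Il1r2, the decoy receptor that binds IL-1 without signalling, had a mean of 9.01 on day 2 and 3.13 on day 0. Nlrp3, the inflammasome sensor, had means of 7.55 and 3.39. Of the IkB family, 4 of 5 rose, from Nfkbid at 3.62 to Nfkbib at 1.05, and of the other NF-kB subunits 2 of 3, Rel by 2.37 and Nfkb2 by 1.77. Among TNF receptors and adaptors 4 of 10 rose, with Tnfrsf1b, the second TNF receptor, at 3.29 and Casp8 at 2.90. For the adaptors of the IL-1 and Toll-like receptors the count was 4 of 9, with the bacterial sensor Tlr2 at 4.34. Kinases of the IKK step gave 2 of 7 and the other feedback inhibitors 2 of 8. Genes named here that were not among the 5 largest differences were named after their values were seen.

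The later satellite cell samples had 9 and 8 pathway genes above day 0. On day 4, 9 of 58 were higher than on day 0 and 0 lower, against 6.53% and 5.47% of all genes, with Cxcl2 at 4.77, Ccl2 at 4.12, Tlr2 at 2.21, Bcl3, a nuclear IkB protein, at 1.95 and Tnfrsf1b at 1.76. On day 8, 8 were higher and 0 lower, against 4.38% and 2% of all genes, including Cxcl2 (3.33), Ccl2 (2.61), Il6 (1.87), Bcl3 (1.65) and the inflammasome adaptor Pycard (1.40). That count was 4 without replicate 2 of day 8, and 5 without its replicate 3 or without replicate 2 of day 0. From day 2 to day 4, 20 of 58 fell and 1 rose, against 5.76% and 4.79% of all genes. The count of 20 was 13 without replicate 1 of day 2 and 23 without its replicate 2. Ptgs2 fell from a mean of 10.07 to 4.27, Nfkbid by 3.27 and Cxcl2 by 2.61. Il1r2 and Nlrp3 had day 4 means of 3.47 each, below the array medians. Day 8 against day 4 gave 0 limma calls in this list, where 1.68% of all genes were called. Of the 60 that passed the filter, 9 were at an unadjusted p under 0.05, against 13% of all genes.

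In endothelial cells the pathway genes that rose were mostly NF-kB targets. On day 2, 9 of 58 were higher than on day 0 and 0 lower, against 3.73% and 3.01% of all genes, and 7 of these were among the 12 targets, with Cxcl2 at 5.69, Ccl2 at 4.74, Il6 at 3.15, Ptgs2 at 3.13 and Sele at 1.84. The count of 9 was 5 to 8 when 1 array was left out, at its lowest without endothelial replicate 1 of day 2. On day 4, 11 were higher against 3.11% of all genes, 8 of them targets, with Cxcl2 at 5.15, Il6 at 4.73, Ccl2 at 4.67, Sele at 3.72 and Tlr2 at 1.99. The count of 11 was 8 to 10 when 1 array was left out. Of 12 leukocyte markers, 8 were called higher on day 2 and 9 on day 4, and their part in these counts was not tested. Sele encodes E-selectin, the endothelial adhesion molecule that is induced by TNF and IL-1, and it was at 4.14 ± 0.20 on day 0 and 7.86 ± 0.05 on day 4. On day 8, 5 were higher against 1.11% of all genes, all targets, namely Il6 (3.38), Cxcl2 (3.26), Sele (2.32), Ccl2 (2.17) and Cxcl1 (1.40). From day 2 to day 4 limma called 0 of the 60 that passed the filter, where 0.37% of all genes were called. Of the 60, 8 were at an unadjusted p under 0.05, against 9.82% of all genes. From day 4 to day 8 Ccl2 alone was called, falling from 9.03 to 6.53, where 0.0924% of all genes fell, a call that was lost without endothelial replicate 1 of day 4 or replicate 3 of day 8.

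**Figure D4:**
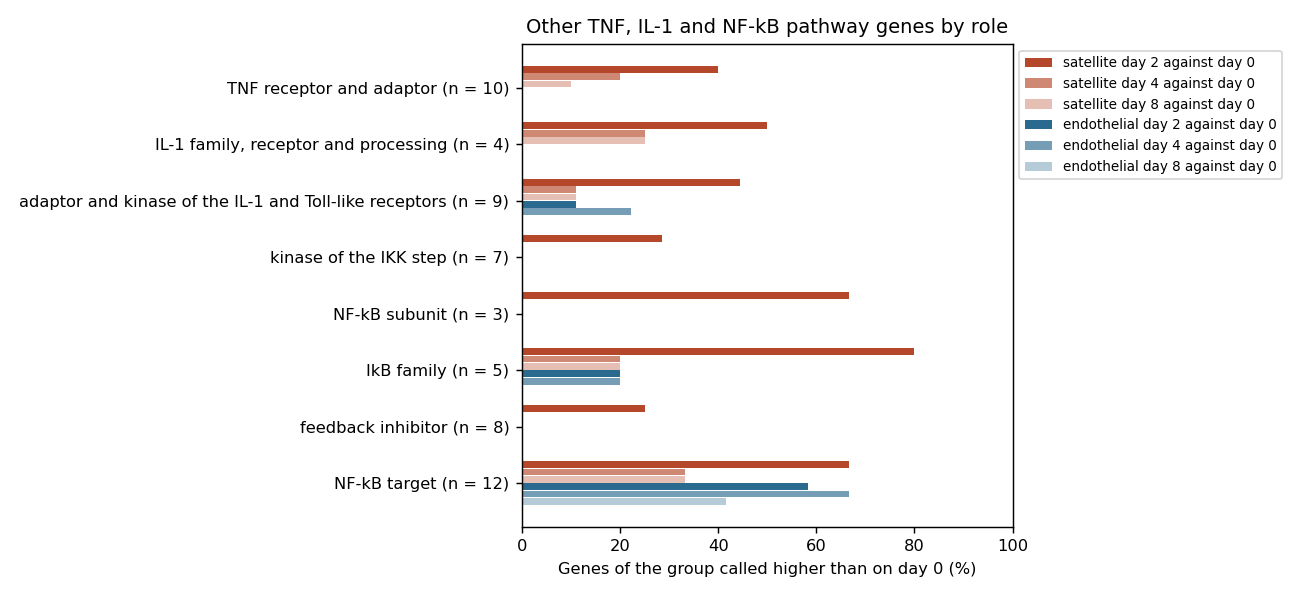
Bars give the percentage of the tested genes of each role in the pathway called higher than on day 0, starting at 0, with the number of genes tested beside each role; red shades are satellite cells and blue shades endothelial cells, paler on later days. On day 2 the satellite cell bars span all 8 roles, with 28 of 58 genes in all, while most endothelial calls lie in the group of targets, with 7 of 12 on day 2 and 8 of 12 on day 4.

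Between the cell types on day 0, 12 of 58 pathway genes were lower in satellite cells and 2 higher, against 9.43% and 7.59% of all genes. The higher ones were Cxcl1 (3.24) and Vcam1 (2.49), and the lower ones included Nos2 (-3.24), the inducible nitric oxide synthase, Sigirr (-2.58), an inhibitory receptor of the IL-1 family, and Casp8 (-2.41). On day 2, 11 were higher and 2 lower in satellite cells, against 5.82% and 6.31% of all genes, with Ptgs2 at 4.04, Nfkbid at 2.45 and Cxcl2 at 2.41. The count of 11 was 21 without satellite cell replicate 2 of day 2 and 5 without replicate 1. On day 4, 0 were higher and 12 lower, against 5.2% and 7.73% of all genes, led by Sele (-3.62), Il6 (-2.53), Nos2 (-1.93), Icam1 (-1.87) and Irak3 (-1.83). Day 8 gave 3 higher and 10 lower, against 7.05% and 6.88% of all genes, with Nos2 at -2.24, Vcam1 at 2.11, Sele at -2.04, Casp8 at -1.82 and Irak3 at -1.72, and without satellite cell replicate 1 of day 8 the count was 1 higher and 8 lower. As an interaction, 14 of 58 pathway genes had a higher change from day 0 in the satellite cell arrays by day 2 and 2 a lower one, against 6.44% and 5.03% of all genes. Among the 14 were Ptgs2 at 3.73, Tlr2 at 3.31 and Casp1 at 3.25. The same test called 9 of 12 leukocyte markers higher and 8 of 10 satellite cell markers lower, and the part of these shifts in the count was not tested. The count of 14 was 23 without satellite cell replicate 2 of day 2, and 9 without its replicate 3, without satellite cell replicate 3 of day 0 or without endothelial replicate 2 or 3 of day 0. By day 4 the 4 genes called, Il6 (-3.57), Sele (-3.25), Cxcl1 (-2.27) and Vcam1 (-2.17), had the lower response in satellite cells, against 2.24% of all genes, and 0 had the higher one. On day 8 Cxcl1 alone was called (-2.08) against 0.811% of all genes lower, and leaving out 1 array ended that call in 9 of 12 fits.

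For each of the 7 genes the 3 genes with the most similar course over the 24 arrays were found by Pearson correlation, given as a description over arrays that share 8 groups. Il1b ran closest to Ccl3 (0.963), Cxcl2 (0.939) and Clec7a (0.937), the first 2 being chemokines and the last a pattern receptor of myeloid cells. Il1rn ran closest to Slfn1 (0.971), Cytip (0.967) and Adam8 (0.963). Tnf ran closest to Gsr (0.937), the glutathione reductase, Cndp2 (0.921) and Dnajb11 (0.903). Tnfaip3 ran closest to Stxbp2 (0.927), Sorl1 (0.919) and Gm5150 (0.917), and Nfkbia to Plk3 (0.854), Tnf (0.839) and Agps (0.837). The likeness was weaker for Il1r1, with Lrrc32 (0.817), Slco2a1 (0.805) and Dipk1a (0.785), and for Relb, with Il6 (0.758), Cmtm3 (0.746) and Lhfpl2 (0.743). Among the 7 genes themselves Il1b and Il1rn were the most alike (0.895), and Il1r1 had correlations of -0.268 to 0.0977 with the other 6.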

How the data were processed

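The 24 single-colour whole-transcript arrays were grouped by sample title; the cell type entry contradicts the title in 12 samples and the time entry in 18, and neither entry was used. The deposited table holds log2 values that the authors made with RMA, per the submitters' processing notes. Its version, its options and the genome build are not given in the sources used here. Per the labels' protocols, picogram amounts of RNA had to be amplified for each array. Of 24479 probe sets, 23281 carry a gene symbol in the array's annotation and 1198 do not. A symbol with several probe sets was represented by the brightest.

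Probe sets above their array's median on at least 3 arrays, 14064 genes, were fitted with limma 3.58.1 in R 4.3.3. The model had a mean for each of the 8 groups and left 16 residual degrees of freedom, and the variances were moderated by eBayes. Tests are two-sided, with Benjamini-Hochberg adjustment over all genes within each of 17 comparisons. A call needed an adjusted p under 0.05 and an absolute log2 difference of at least 1. The script was tested on simulated data. Precision is limited by there being 3 arrays per group.

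The genes and the lists were chosen with earlier results of these data known. Named were all 9 genes, up to 5 called pathway genes per comparison with the largest differences, the 3 genes most like each tested gene, and defining markers. Promoter sequences came from RefSeq. Alternatives were the filter, the centring, the moderation, array weights, the groups fitted, the probe set per symbol, replicate blocks and leaving out each array. Lists of fibroblast and mural markers were also read, beside the leukocyte, satellite cell and endothelial lists given in the results. In satellite cells on day 2, 1 of 7 tested fibroblast markers was higher and 4 lower, and all 10 mural markers were lower.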

Additional observations from a re-analysis of the deposited data

Results flagged for a closer look

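In 4 cases the response to injury differed between the cell types by the test of the difference itself. The day 2 change from day 0 was larger in satellite cells than in endothelial cells by 4.26 (log2) for Tnf, by 3.12 for Il1b and by 2.46 for Il1rn. The Il1b call was lost in 6 of the fits that each left out 1 array. For Tnf all satellite cell arrays lay below the endothelial ones on day 0, while on day 2 the means were 9.56 and 7.69 in that order and the arrays overlapped. The leukocyte marker mean changed with them, from 3.96 to 10.16 in satellite cells and from 4.06 to 7.04 in endothelial cells. Its part in these values was not tested. The day 4 change of Il1r1 was lower in satellite cells, with a difference of -2.48 between the responses. That call was lost in 4 of the fits that each left out 1 array. The Il1r1 mean went from 8.60 to 7.60 in satellite cells and from 7.81 to 9.28 in endothelial cells. At that time the leukocyte means were 7.74 and 7.23.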

How the results depend on the processing

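In satellite cells on day 2 the rises of Tnf (4.57 to 5.86), Il1b (7.24 to 7.69), Il1rn (3.37 to 4.33) and Tnfaip3 (1.38 to 2.24) kept their direction and their call under all 15 alternatives, with adjusted p up to 0.0011, 3.06e-05, 0.00165 and 0.0244. Leaving out 1 array gave 4 to 6 calls among the 7 genes in satellite cells on day 2 (5 in all arrays) and 3 to 4 between the cell types on day 2 (4 in all arrays). Counts moved by over 1.5 times in these cases. In satellite cells on day 4 the count of 2 was 4 with array weights and 1 to 3 when 1 array was left out, and on day 8 the count of 2 was 1 with only the groups compared and 0 to 2 leaving out 1 array. In endothelial cells the day 2 count of 1 was 2 with the stricter filter, 2 with array weights and 1 to 2 leaving out 1 array. The day 4 count of 2 was 1 with no filter, 1 with centred arrays and 1 leaving out any 1 array, and the day 8 count of 0 was 1 with array weights and 1 with only the groups compared. Between cell types on day 8 the count of 0 was 0 to 1 leaving out 1 array. For the day 2 interaction the count of 3 was 6 with array weights and 2 to 6 leaving out 1 array, and for the day 4 interaction the count of 1 was 2 with array weights, 2 with only the groups compared and 0 to 1 leaving out 1 array. The cause of these moves was not tested, beyond there being fewer samples. Of 119 differences between groups, 18 changed sign under at least 1 alternative, and 0 of these were called.

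Counts over all genes moved by over 1.5 times with only the groups compared, which leaves fewer samples: from 897 to 581 (satellite cells, day 8), from 1483 to 635 (satellite cells, day 4 against 2), from 236 to 56 (day 8 against 4), from 52 to 0 (endothelial cells, day 4 against 2) and from 1706 to 785 (cell types, day 2). With array weights they moved from 236 to 412 (satellite cells, day 8 against 4), from 289 to 459 (endothelial cells, day 8), from 52 to 154 (day 4 against 2), from 17 to 62 (day 8 against 4), and for the interactions from 1614 to 2443, from 596 to 1047 and from 310 to 512. Leaving out 1 array gave 110 to 368 for satellite cells on day 8 against 4, 162 to 242 for endothelial cells on day 8, 26 to 58 and 8 to 17 for the 2 later endothelial steps, and 183 to 374 for the day 8 interaction.

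No label says that a replicate number marks a shared animal or day, although 11 of the 12 same-number pairs also share the number in their array names. Of these 12 pairs, 4 had a correlation over 0.1 (range -0.0649 to 0.198), and 13 of 24 arrays were best matched by their own number. No chance level is given here for that count. The consensus correlation within blocks was 0.0408 by title replicate number and 0.0483 by array name number. With the replicate block as fixed pairs the day 4 interaction count was 2, with Tnf called (adjusted p = 0.0431), and Tnfaip3 was called in the day 2 interaction (adjusted p = 0.0124).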
